A study of Xenopus laevis with 12 samples.

Results

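Frog embryos injected with the antisense oligonucleotide Fam46a-MO1 (MO1) were compared at stage 8 with embryos given the control oligonucleotide CoMO. The comparison was chosen by label alone: it holds the 2 MO1 and the 2 CoMO arrays of stage 8, of 12 arrays in all, and every one of the 32539 probe sets that are not array controls. All embryos were *Xenopus laevis*, obtained by in vitro fertilization and kept at 22 °C, and RNA came from whole embryos. CoMO and MO1 were both given at 10 ng per cell, into the animal pole of each blastomere of 4-cell embryos. A further group, MO2+MO3, received a mix of Fam46a-MO2 and Fam46a-MO3 (7 ng of each per cell), and all 3 groups were also measured at stage 10.5, with 2 arrays a group. No group was left uninjected, so every difference is between oligonucleotides. The stated aim was to find genes affected by depletion of fam46a. The labels call the arrays biological replicates and do not say how many embryos were pooled, whether they came from separate clutches or what RNA sequence each oligonucleotide pairs with. The p-values therefore measure the spread between these arrays, which may be partly technical.

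Stage 8 is a blastula. The early frog embryo runs on RNA stored in the egg, and transcription of the embryo's own genes starts broadly around the midblastula transition. The length of the poly(A) tail governs how well stored RNAs are translated in these embryos, and fam46a, now named tent5a, codes for a member of a family of noncanonical poly(A) polymerases. Morpholino oligonucleotides pair with RNA and block its translation or splicing, so they need not lower the level of the RNA they target. *Xenopus laevis* is an allotetraploid, and many of its genes have a copy on the long (.L) and another on the short (.S) subgenome. Gene functions below are background, most of them known from mammals or yeast.

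The deposited values carry no level: each probe set was centred within a stage on the median of its 6 arrays. A value of 0 is thus the middle of the 6 stage 8 arrays, and only differences between arrays of a stage can be read, given here on the log2 scale. A coarse level, an interval for the lowest of the 6 arrays, was read back from how the numbers had been rounded. By that measure 12662 probe sets had at least 1 stage 8 array below a log2 level of 4, where 6 of 6 negative control probe sets lay. They are 38.9% of all probe sets. Among markers of an early whole embryo, 1 of 21 probe sets for egg and oocyte RNAs and 5 of 33 for vegetal and germ plasm RNAs had such a dim array. Animal pole and ectoderm RNAs had 12 of 38 (31.6%), closer to the share over all probe sets. The first zygotic genes had 28 of 65 (43.1%), near that share. Brightness of different probe sets is not a like-for-like level, so these counts are a weak check of the label. Array medians at stage 8 ran from -0.0083 to 0.0121. The values had already been normalized and centred, which brings medians near 0, so they cannot show whether an array stood apart.

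The arrays fell into pairs by replicate number. The deviations of replicates from their group means correlated at 0.864 between CoMO and MO1, and at 0.836 to 0.862 in the other pairs of stage 8 groups. Replicates of a group lay further apart than the groups did: the median absolute difference between the 2 replicates was 0.164 for CoMO and 0.188 for MO1, against 0.0952 between MO1 and CoMO within replicate number 1 and 0.122 within number 2. Probe sets were therefore called from the limma fit with 1 coefficient per group and also from the same fit with the replicate number as a block. For many single genes only the adjusted p of the blocked fit is printed.

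Few probe sets were called in MO1 at stage 8, and most of those called fell. Without the block 2 probe sets, both for dbn1.S, were lower and 0 were higher at an adjusted p under 0.05 (0.00615% called), and 628 had an unadjusted p under 0.05. With the block 40 were called (0.123%), of which 31 were lower (0.0953%) and 9 higher (0.0277%), and both dbn1.S probe sets were among them. With the block 2666 had an unadjusted p under 0.05. By chance 1627 would, so the count without the block lay below chance and the count with it above. The calls need not hold every RNA that differed. In RNA of whole embryos, fewer cells of a type and less RNA per cell cannot be told apart. The 31 that fell hold 21 probe sets for 17 named genes and 10 that the annotation leaves unnamed. The 9 that rose hold 8 named genes and 1 unnamed probe set. Differences were small over the whole array: the 1st and 99th percentiles of MO1 minus CoMO were -0.44 and 0.39, and the median was 0.01.

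The size of the count rested on single arrays. Without CoMO replicate 2 the blocked fit called 5 probe sets, without CoMO replicate 1 it called 13, without MO1 replicate 1 it called 23 and without MO1 replicate 2 it called 56. Of the named probe sets, those called in 4 of these 4 fits were 2 of dbn1.S, 1 of fnta.S and 1 of rpn2.S, and the other 2 of fnta.S, uqcrc1.L and sirt3.2.L were called in 3. By contrast cct4.S, pomp.S, efna1.S, metrnl.L, anxa4.L, MGC69154, socs1.S, pdf.S, pdap1.S, stambpl1.S and bmp6.S were called in 0 of the 4. Without the block the 2 dbn1.S calls became 0 when either CoMO array was left out. Both were called without MO1 replicate 1, and 1 of them without MO1 replicate 2, where 1 other probe set was called higher. Fitted to the 4 arrays alone limma called 0 with the block (2599 at an unadjusted p under 0.05) and 0 without it (481).

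The same within-number differences, which the blocked fit tests, were also counted by size. In 20 probe sets (0.0615%) MO1 differed from CoMO by more than 2-fold in the same direction within both replicate numbers, 16 of them lower and 4 higher, and 19 of the 20 were among the 40 called with the block. The other 21 called probe sets differed by less in at least 1 number. By contrast, the 2 MO1 arrays lay wholly to one side of the 2 CoMO arrays in 7691 probe sets (23.6%), and in 38 of the 40 called.

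**Figure D1:**
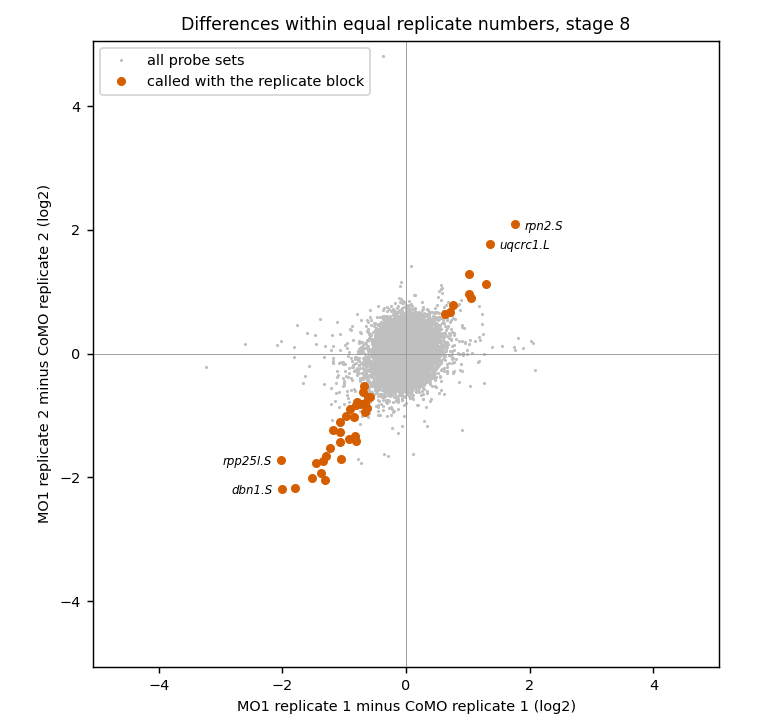
Log2 difference of MO1 from CoMO at stage 8 within replicate number 1 (x axis) and within number 2 (y axis), one point per probe set, with the 40 called by limma with the replicate block in colour over all probe sets in grey. The called probe sets lie along the diagonal, which the call itself favours, since the blocked fit tests these same differences. The dbn1.S and rpp25l.S points are at the lower left and rpn2.S and uqcrc1.L at the upper right. Across all probe sets the differences of the 2 numbers have a Pearson r of 0.199, given as a description.

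The array carries the targeted gene as tent5a.L (gene 100158383). Its 2 probe sets differed from CoMO by -0.02 ± 0.28 and -0.16 ± 0.35, and those of the related tent5b.S by -0.04 ± 0.32 and -0.09 ± 0.38. These are limma moderated SEs of the fit without the block (n = 2 arrays a group). With the block the SEs were 0.20 and 0.17 for tent5a.L and 0.12 and 0.12 for tent5b.S. None of the 4 was called in either fit (adjusted p of 0.877 to 0.991 in the limma fit with the block). With median levels between 2.3 and 4.46, tent5a.L was hardly brighter than the negative controls, so its values say nothing of how far the gene was depleted.

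Drebrin, an actin-binding protein coded by dbn1.S (gene 494829), gave the largest fall. On its strongest probe set the CoMO arrays stood at 0.04 and -0.04, the MO1 arrays at -1.97 and -2.22, and the MO2+MO3 arrays at 0.13 and 0.07. The 2 MO1 arrays were thus the only low ones of the 6, at about the same depth in both replicates. The difference from CoMO was -2.10 ± 0.12, a 4.29-fold fall (limma, adjusted p = 0.00317 without the block and 0.000375 with it). A probe set from the same transcript cluster, which may share probes with it, fell by 1.98 ± 0.14 (adjusted p = 0.00607 and 0.00079). On the third, the CoMO arrays stood at 0.21 and -0.06 and the MO1 arrays at -1.13 and -1.80, and the fall of 1.54 was called with the block alone (adjusted p = 1 and 0.00992, limma). This was also the probe set of dbn1.S on which MO1 replicates differed most.

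The shared alpha subunit of the enzymes that attach farnesyl and geranylgeranyl lipids to proteins is coded by fnta.S, and its 3 probe sets fell together. On the first the CoMO arrays read -0.08 and 0.12, the MO1 arrays -1.60 and -1.89 and the MO2+MO3 arrays 0.10 and 0.08. The other 2 probe sets had MO1 arrays between -1.41 and -1.85 and CoMO arrays between -0.04 and 0.11. The MO1 arrays did not come near any other stage 8 array on any of the 3. The falls were 3.4-fold, 3.15-fold and 3.06-fold, with adjusted p of 0.00144, 0.00288 and 0.00168 with the block and 0.159 to 0.307 without it (limma). The probe sets with falls of 3.4-fold and 3.15-fold come from the same transcript cluster and may share probes.

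The fall of rpp25l.S lay between those of dbn1.S and fnta.S on their strongest probe sets. It codes for a protein related to a subunit of the RNA-processing enzymes RNase P and RNase MRP. CoMO arrays stood at 0.51 and 0.03 and MO1 arrays at -1.51 and -1.68, a 3.64-fold difference (-1.87, adjusted p = 0.162 without the block and 0.00435 with it, limma). MO2+MO3 arrays stood at 0.31 and -0.03, beside the CoMO arrays of their number. The Golgi pH regulator gpr89b.L, an anion channel of the Golgi membrane, read -0.01 and 0.11 in CoMO, -1.31 and -1.56 in MO1 and 0.01 and 0.09 in MO2+MO3. Its fall was 2.79-fold (adjusted p = 0.123 and 0.00543 in the 2 limma fits).

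Falls of 2-fold to 3-fold, called with the block alone, came from genes of varied function. The sirtuin sirt3.2.L, of the family of NAD-dependent deacylases, read 0.16 and 0.10 in CoMO and -1.06 and -1.43 in MO1 (2.6-fold, limma adjusted p = 0.00288 with the block and 1 without). The gene eipr1.L, for a protein that binds the EARP endosomal recycling complex, fell by 1.38 with adjusted p = 0.0435. The mitochondrial complex III core subunit uqcrc2.S fell by 1.17 (adjusted p = 0.00792), and its MO1 arrays at -0.80 and -1.16 lay below CoMO arrays at 0.27 and 0.10. The makorin mkrn2.L, a RING finger ubiquitin ligase, fell by 1.09 with close values in both numbers, -1.07 and -1.11 (adjusted p = 0.00288). The actin nucleator spire1.S fell by 1.08, with differences of -0.83 and -1.32 within the 2 numbers (adjusted p = 0.0383). These genes share no one list of those examined.

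Smaller falls were called with the block for 8 further named genes. They were pfdn6.L, a subunit of the prefoldin chaperone (-0.98, adjusted p = 0.0114, limma), the calcium-dependent membrane-binding annexin anxa4.L (-0.90), MGC69154 (-0.80), the cytokine signalling inhibitor socs1.S (-0.78), the mitochondrial peptide deformylase pdf.S (-0.76), pdap1.S (-0.66), the deubiquitinase stambpl1.S (-0.64) and the signalling ligand bmp6.S (-0.60). Their adjusted p with the block lay between 0.0114 and 0.0496, near the threshold for most. For socs1.S and pdf.S the MO1 and CoMO arrays overlapped, and they were the only called probe sets where they did: socs1.S read 0.81 and -0.08 in CoMO and 0.08 and -0.90 in MO1. The bmp6.S probe set had an array at a level below 4, so its 1.52-fold difference was measured close to the negative controls.

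**Figure D2:**
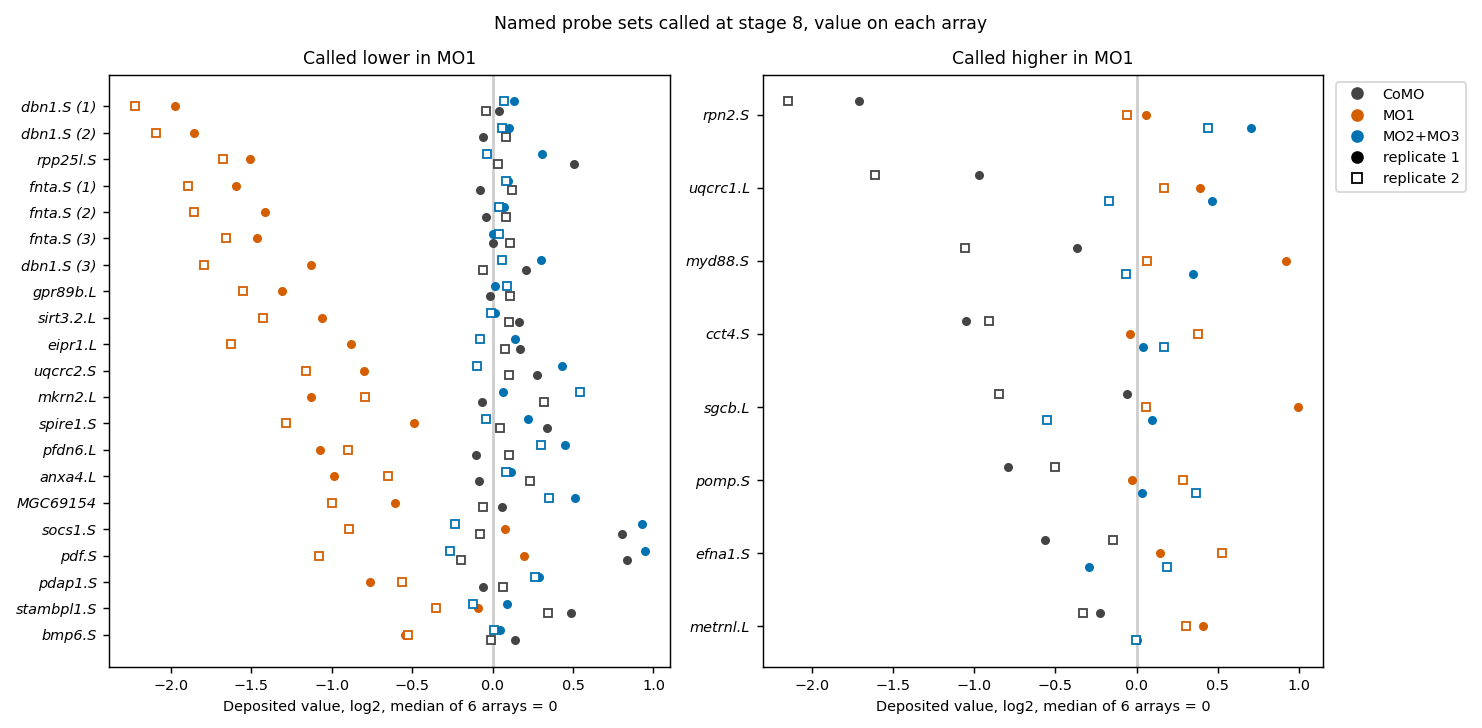
Centred log2 value of the named probe sets called with the replicate block, on each of the 6 stage 8 arrays, one row per probe set, with colour for the injection and symbol for the replicate number. For dbn1.S, fnta.S, rpp25l.S and gpr89b.L the 2 MO1 points stand apart to the left of the other 4, while for rpn2.S, uqcrc1.L and cct4.S the 2 CoMO points stand apart to the left.

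The largest rise among called probe sets was that of rpn2.S, a subunit of the oligosaccharyltransferase that adds N-linked sugars to proteins in the endoplasmic reticulum. CoMO arrays stood at -1.71 and -2.15, MO1 arrays at 0.06 and -0.06 and MO2+MO3 arrays at 0.70 and 0.44. Here it was the 2 CoMO arrays that stood apart from the other 4. The rise was 1.93 ± 0.11 with the block, or 3.8-fold (adjusted p = 0.00085), and was not called without it (adjusted p = 0.307, limma).

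For the other core subunit of complex III, uqcrc1.L, CoMO arrays read -0.97 and -1.61, MO1 arrays 0.39 and 0.17 and MO2+MO3 arrays 0.46 and -0.17. The MO1 difference of 1.57 was called with the block (adjusted p = 0.00338) and not without it (adjusted p = 1, limma). The chaperonin subunit cct4.S rose by 1.15 (adjusted p = 0.0143 with the block, 0.375 without), with CoMO arrays at -1.05 and -0.91 and MO1 arrays at -0.04 and 0.38. The adaptor of Toll-like receptors, myd88.S, rose by 1.21 (adjusted p = 0.00992 and 1), with CoMO arrays at -0.37 and -1.06 and MO1 arrays at 0.92 and 0.07. Both numbers gave it a similar rise, 1.29 and 1.13, while its 2 CoMO arrays differed from each other by more than those of cct4.S.

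Rises under 2-fold were called with the block for sgcb.L, which codes for the membrane protein beta-sarcoglycan (0.98, adjusted p = 0.00851), the proteasome assembly factor pomp.S (0.78, adjusted p = 0.00992), the Eph receptor ligand efna1.S (0.69, adjusted p = 0.0472) and metrnl.L, for a secreted meteorin-like protein (0.64, adjusted p = 0.0335, limma). The sgcb.L probe set had an array at a level below 4.

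MO2+MO3 embryos of the same stage allow a second reading, with the limit that both reagents are set against the same 2 CoMO arrays. Values are given side by side for that reason. Over the 31 probe sets that fell in MO1, the median difference of MO2+MO3 from CoMO was 0.07, with a range of -0.46 to 0.43, and 0 were called with or without the block (background 0.141% with it). It was 0.10 for the strongest dbn1.S probe set, 0.07, 0.03 and -0.03 for fnta.S, -0.13 for rpp25l.S and 0.01 for gpr89b.L. Over the 9 that rose the median was 0.85, with 2.50 for rpn2.S, 1.44 for uqcrc1.L, 1.09 for cct4.S and 0.86 for myd88.S. Of these MO2+MO3 differences, those of rpn2.S, uqcrc1.L and cct4.S were called with the block, as was that of pomp.S (0.85), and 0 of the 9 were called without it (limma).

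The direct contrast of MO1 with MO2+MO3 at stage 8 uses no CoMO array but does use the MO1 arrays by which the genes were chosen. It called 124 probe sets with the block (0.381%, of which 0.194% lower and 0.187% higher in MO1) and 2 without it (0.00615%). Of the 31 that fell against CoMO, 28 differed between the reagents with the block, and both dbn1.S probe sets also without it. The fall of stambpl1.S was not shown to differ, at -0.64 for MO1 beside -0.43 for MO2+MO3 (limma with the block, adjusted p = 0.376). Of the 9 that rose, 2 differed with the block and 0 without. The difference between reagents was not called for rpn2.S (adjusted p = 0.0988), uqcrc1.L (0.776), cct4.S (0.901), pomp.S (0.808) or myd88.S (0.337), and was called for sgcb.L (0.98 against 0.23, adjusted p = 0.0193, limma with the block).

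The MO1 and CoMO embryos of stage 10.5, the onset of gastrulation, were measured on other arrays. The labels do not say whether they came from the same clutches. Of the 31 probe sets that fell at stage 8, 30 were also lower at stage 10.5, and 28 were called lower with the block, against 7.75% of all probe sets. Without the block 11 were called lower, against 0.473%. Their median difference was -1.05 at stage 10.5 and -1.11 at stage 8. Over all probe sets the median difference at stage 10.5 was 0.02, and the differences at the 2 stages had a Pearson r of 0.222. The share of all probe sets that kept their sign was not counted. Of the 9 that rose, 7 were also higher and 6 were called higher with the block, against 8.48% of all probe sets, and 2 without it, against 0.443%. The 34 repeated calls are 85% of the 40 made at stage 8 and 0.644% of the 5280 made at stage 10.5. Both contrasts use the residual spread of the same 12-array fit, so a probe set with little spread is favoured in both, whereas the signs do not depend on it. With stage 10.5 called without the block the share was 32.5%, and with stage 8 fitted without MO1 replicate 2 it was 35.7% of the 56 then called.

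The dbn1.S fall was as deep at stage 10.5. CoMO arrays stood at 0.06 and -0.06 and MO1 arrays at -2.21 and -2.11, and the difference of -2.16 had an adjusted p of 3.77e-05 with the block (limma). For fnta.S the 3 probe sets differed by -1.23, -1.06 and -1.40, and all 3 were called. The value for rpp25l.S was -0.93, with MO1 arrays at -0.81 and -0.52, against -1.87 at stage 8. The change between the stages, 0.94 ± 0.22, was not called (adjusted p = 0.0562, limma with the block). The rpn2.S rise was 2.16 (adjusted p = 4.14e-05), and those of uqcrc1.L and cct4.S were 1.57 and 1.15. The unnamed probe set that rose by 0.99 at stage 8 stood at 2.27 at stage 10.5, the largest of the 9 there.

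A few genes behaved differently at the later stage. The fall of mkrn2.L was deeper, -2.02 against -1.09, and its change between stages was called with the block. For efna1.S the sign turned, from 0.69 at stage 8 to -0.88 at stage 10.5, where it was called lower (adjusted p = 0.000803, limma with the block). Differences for socs1.S (-0.17), bmp6.S (0.08), sgcb.L (0.03) and metrnl.L (-0.15) were not called at stage 10.5. Of the 40 probe sets 8 changed between the stages with the block (4.16% of all) and 0 without it (0.0215% of all). The genes were selected on their stage 8 values, which was not corrected for.

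**Figure D3:**
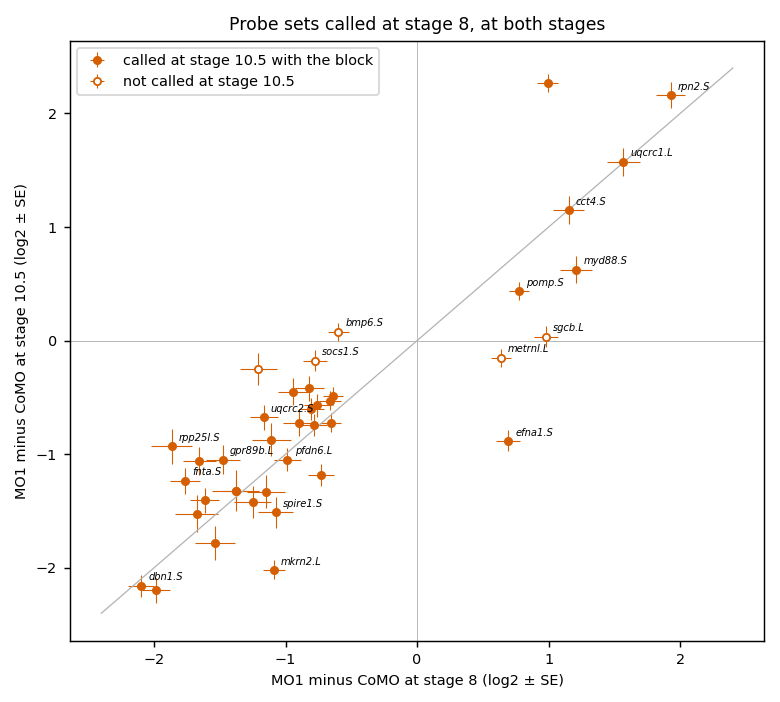
Log2 difference of MO1 from CoMO at stage 8 (x axis) and at stage 10.5 (y axis) for the 40 probe sets called at stage 8 with the replicate block, with moderated standard errors of that fit as bars, the diagonal drawn and open symbols for probe sets not called at stage 10.5. Of the 31 lower points 30 are lower at both stages, and of the 9 higher points efna1.S and metrnl.L lie below 0 at stage 10.5.

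Where the other subgenome copy was on the array it was not called. Of 25 named genes called with the block, 10 had the other copy measured, and 0 of those copies were called. Over all probe sets 0.123% were called, so 0 of 10 is near that share and says nothing particular of the copies. The .S copy of uqcrc2 fell by 1.17 and its .L copy differed by -0.07, and pfdn6.L fell by 0.98 while pfdn6.S differed by 0.07. The .L copy of eipr1 fell by 1.38 beside 0.12 for eipr1.S. For the rises, cct4.S stood at 1.15 and cct4.L at 0.53 (adjusted p = 0.254, limma with the block), and myd88.S at 1.21 and myd88.L at -0.08. The genes dbn1, fnta and rpn2 are not among the 10. The difference between copies was not tested, 4 of the 10 other copies (anxa4.S, socs1.L, efna1.L and eipr1.S) had an array at a level below 4, and probes can bind both copies.

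Second probe sets of a called gene did not all move with the first. The second probe set of pomp.S differed by -0.13, of metrnl.L by -0.19 and of socs1.S by 0.02, whereas that of pdf.S stood at -0.67 (adjusted p = 0.099) and that of sgcb.L at 0.78 (adjusted p = 0.381, limma with the block). The calls of pomp.S, metrnl.L and socs1.S thus rest on 1 of 2 probe sets each. The second probe sets of socs1.S and sgcb.L had an array at a level below 4, so that of socs1.S was a weak check of the first.

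**Figure D4:**
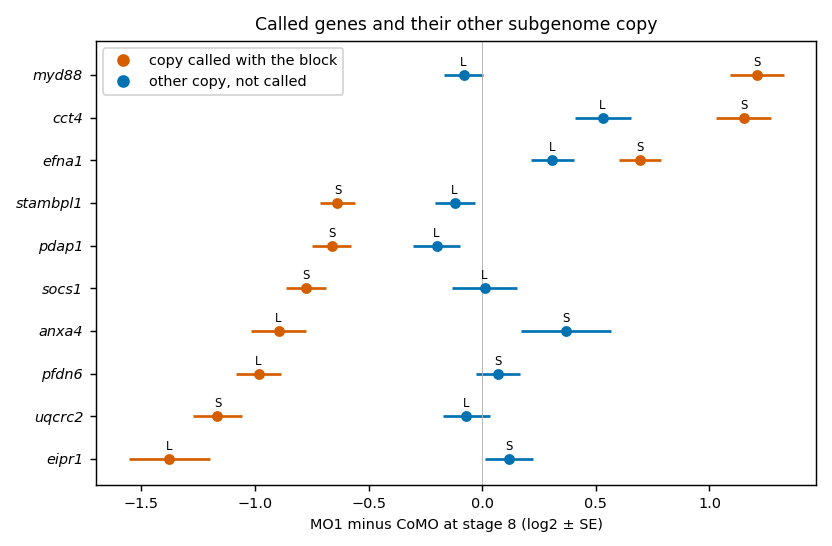
Log2 difference of MO1 from CoMO at stage 8 for the 10 called genes whose other subgenome copy was measured, one row per gene and letters for the copy, with moderated standard errors of the fit with the replicate block as bars. The called values stand away from 0, while the other copies lie between -0.20 and 0.53.

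Gene lists for the pathways of the embryo and of the called genes were described by their counts and medians, with no test of a list. Medians of MO1 minus CoMO over 23 lists ran from -0.09 (RNase P and RNase MRP, 8 probe sets) to 0.03 (cytoplasmic polyadenylation and maternal mRNA control, 49 probe sets), beside 0.00 over all named probe sets. Without the block the called list members were the 2 dbn1.S probe sets in the actin binding list. The lists hold genes known from earlier results of these data, so their called members are no independent evidence.

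Among lists of stored and early RNAs, 0 members were called in cytoplasmic polyadenylation (49 probe sets), egg and oocyte RNAs (21), vegetal and germ plasm RNAs (33), animal pole and ectoderm RNAs (38), genome activation regulators (40) and first zygotic genes (65). With the block 0.123% of all probe sets were called, so counts of 0 in lists of this size are near that share. They do not show that a list was unaffected. The first zygotic genes had a median of -0.07, with -0.17 within number 1 and -0.06 within number 2. Their lowest member was foxi4.2.S, an ectodermal forkhead factor, at -0.88 (adjusted p = 0.326), followed by the Sp-family factor sp5l.S at -0.81 (0.502, limma with the block). CoMO arrays of foxi4.2.S read 0.33 and 0.47 and MO1 arrays -0.80 and -0.16. Both MO1 arrays were thus lower, by unequal differences of -1.13 within number 1 and -0.63 within number 2. In the maternal mRNA control list tacc3.S, for a centrosomal protein, stood at 0.78 (adjusted p = 0.082).

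In the lists of protein production and turnover, called members were single genes. Of 61 probe sets for oligosaccharyltransferase and ER translocation only rpn2.S was called, and the list median was -0.02. Of 28 for the CCT chaperonin and prefoldin cct4.S was higher and pfdn6.L lower, with a median of -0.06. Of 75 proteasome probe sets pomp.S was higher. The lists for ER stress and folding (48), ribosome assembly (56) and cytosolic ribosomal proteins (137) had 0 called, near the share of 0.123% over all probe sets. The lowest value in ribosome assembly was rrs1.S at -1.25 (adjusted p = 0.119, limma with the block), where MO1 arrays stood at -0.58 and -1.92. Ribosomal proteins had medians of opposite sign within the 2 numbers, -0.13 and 0.10.

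Of 50 respiratory chain probe sets, uqcrc1.L was higher and uqcrc2.S lower, although both code for core subunits of one complex, and the median was -0.02. Of 70 for vesicle coats and Golgi gpr89b.L was lower, of 93 for actin binding the 3 dbn1.S probe sets, of 21 for protein prenylation the 3 of fnta.S and of 8 for RNase P and RNase MRP rpp25l.S. The actin nucleator spire1.S, also called lower with the block, was not on the actin binding list. Toll-like receptor and interferon response genes had 1 member higher of 35, myd88.S. The p53 response and apoptosis list, whose genes are known to rise in some morpholino-injected zebrafish embryos, had 0 called of 40, with cdkn1a.L at -0.62 (adjusted p = 0.516) and gadd45g.L at -0.59 (0.209). Cell cycle (108), Wnt (74) and BMP and Nodal (74) lists had 0 called. The ligand gene bmp6.S, called lower with the block, was not on the BMP and Nodal list. The counts of 0 in these lists, like that of the p53 list, are near the share of 0.123% over all probe sets. Members of the cell cycle, Wnt, and BMP and Nodal lists furthest from 0 were ccnb3.S at 0.53, fzd7.L at -0.72 with wnt8a.L at -0.54, and the BMP target genes id3.S at -1.08 and id3.L at -0.91 (adjusted p of 0.074 to 0.523, limma with the block). Of these, cdkn1a.L, wnt8a.L, id3.S and id3.L had an array below a level of 4.

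**Figure D5:**
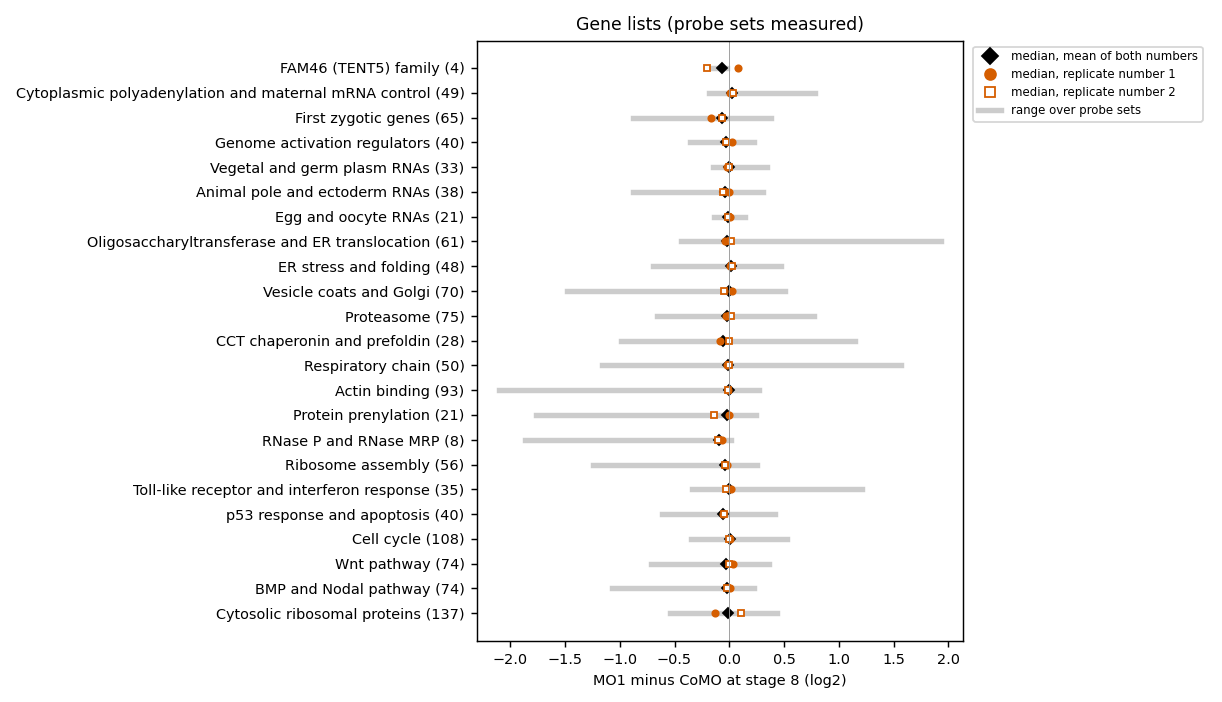
Log2 difference of MO1 from CoMO at stage 8 for the probe sets of each gene list, one row per list with its number of probe sets. The grey bar spans its members, the diamond is the list median and the other 2 symbols are the medians within each replicate number. List medians lie between -0.09 and 0.03, while the bars of the actin binding, oligosaccharyltransferase and respiratory chain lists reach out to dbn1.S, rpn2.S and uqcrc1.L.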

How the data were processed

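Total RNA (100 ng per array) was amplified, labelled with biotin and hybridised to 3′ expression arrays, per the labels' protocols. The log2 values were made by the authors with RMA before they were deposited, per the submitters' processing notes, which name no version or log base. Within each stage, every one of the 32635 probe sets has a median within 1e-06 of 0 over its 6 arrays. No source records that centring, which removed levels and the difference between stages. Scanner files were not used here. The number of arrays limits precision.

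The 96 control probe sets were left out. Symbols come from the platform's annotation (1 gene for 15495 probe sets, several for 279, none for 16765), of which 15384 matched a gene table of assembly Xenopus_laevis_v10.1. Intervals of level were read from single-precision rounding with Python 3.11.15 and pandas 2.3.3. A filter on log2 level could not be run on centred values and was replaced by these intervals.

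One limma model (limma 3.58.1, R 4.3.3) with eBayes covered the 12 arrays, and its two-sided p-values were adjusted by Benjamini-Hochberg over 32539 probe sets, with calls at an adjusted p under 0.05. Values after ± are moderated SEs, of the fit without the block unless the block is named. The design without the replicate block was the planned one. Deviations of same-numbered arrays correlated at 0.821 to 0.864 in every pair of groups within a stage, so the numbers were treated as pairing the arrays and blocked values stand beside the others. The median residual SD was 0.175 without the block (6 degrees of freedom) and 0.104 with it (4). The fits were tested on simulated data with normal noise at the residual SDs of the blocked fit. A shift shared by all replicate 2 arrays of a stage was added. The simulation thus followed the blocked model, so it cannot show which fit suits these arrays. The size of the shift was assumed and not taken from the arrays, so the shares called need not hold for them. Changes of 0.5, 1 and 2 were given to 67, 67 and 66 probe sets. There, log2 changes of 0.5 were called in 0% of changed probe sets without the block and 22.4% with it. For changes of 1 the shares were 53.7% and 71.6%, and for changes of 2 they were 97.0% and 95.5%. Among all the unchanged probe sets, false calls numbered 1 without the block and 9 with it.

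Genes named are the FAM46 family, every named gene called in either fit and the called members of each list. For some lists, members among those furthest from 0 are named too, as are some other probe sets and copies of called genes. Genes that differed strongly within 1 replicate number only were picked because of their values. Members and lists were chosen with earlier results of these data known. Alternatives were other array sets, scaling, variance settings, filters, gene means and leaving out each array.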

Additional observations from a re-analysis of the deposited data

Results flagged for a closer look

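For 6 named genes called at stage 8 with the replicate block, the MO1 effect differed between the stages by limma's test of the change (stage 10.5 minus stage 8, with the block). The change was -0.93 for mkrn2.L (adjusted p = 0.00681), which was low at both stages and lower at stage 10.5. For efna1.S it was -1.58 (adjusted p = 0.00163), from higher at stage 8 to lower at stage 10.5. It was 0.60 for socs1.S (adjusted p = 0.0369) and 0.68 for bmp6.S (adjusted p = 0.0175), both low at stage 8 alone. It was -0.94 for sgcb.L (adjusted p = 0.00907) and -0.79 for metrnl.L (adjusted p = 0.00937), both high at stage 8 alone. Without the block the adjusted p of these changes lay between 0.294 and 1, so none was called. The probe sets of bmp6.S and sgcb.L had arrays near the negative controls at stage 8, and second probe sets of socs1.S and metrnl.L did not repeat the stage 8 call. That second socs1.S probe set was itself dim, with an array below a level of 4. The part of these limits in the changes was not tested.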

How the results depend on the processing

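The count without the block, 2, was 0 when only the 6 stage 8 arrays were fitted, when only the 4 arrays of the comparison were fitted and when probe sets were averaged per gene, 0 to 2 with each array left out, and 40 with the replicate block. The count with the block was 14 on the 6 stage 8 arrays, 0 on the 4 arrays, 77 over probe sets not below a level of 4, 22 where a 2-fold difference was also required, and 5 to 56 with each array left out (5, 13, 23 and 56). It was 54 after quantile normalization, 33 with robust eBayes and 33 with gene means. The share repeated at stage 10.5, 85%, was 32.5% without the block there, 35.7% to 80% with each stage 8 array left out, and 72.5% to 75% with each stage 10.5 array left out, an alternative chosen after seeing the data. Over the 40 probe sets called with the block, MO1 against MO2+MO3 went from 2 calls without it to 30 with it. The change between stages went from 0 to 8. No called probe set named in the text changed sign under the alternatives run. Set against the fit without the block, 13 values, all of dbn1.S, lost the call, 166 gained one, all in blocked fits, and 455 stayed on their side of the threshold, most of them uncalled. Of 29 named probe sets called with the block, 11 were called in 0 of the 4 blocked fits that left out a stage 8 array. Of list medians, 395 moved by less than their spread and 111 by more. The cause of these shifts was not tested, beyond the fewer arrays or probe sets that some alternatives hold. Dim signal limits probe sets below a level of 4.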

Other observations

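A few RNAs differed strongly within 1 replicate number and not within the other. In 8 probe sets MO1 differed from CoMO by more than 2 on the log2 scale in one number and by less than 0.5 in the other. Those named here were picked because of their values, and none was tested apart from the fits above. The adenosine-producing ectoenzyme nt5e.S read 3.26 and -0.04 in CoMO, 0.04 and -0.26 in MO1 and 3.04 and -0.30 in MO2+MO3 at stage 8. The inhibitor of NF-kappaB signalling tnfaip3.S read 2.97 and -0.70 in CoMO, 0.37 and -0.54 in MO1 and 3.01 and -0.37 in MO2+MO3. The carboxypeptidase gene cpo.1.L differed by -2.03 within number 1 and by 0.21 within number 2. In all 3 the high arrays were replicate 1 of CoMO and of MO2+MO3, and replicate 1 of MO1 was not high. All 3 had an array at a level below 4 and a median level of at most 4.3, close to the negative controls. That pattern was not shared by all 8. For stat6.L, CoMO arrays read -0.85 and 0.06, MO1 arrays 1.16 and 0.27 and MO2+MO3 arrays -0.47 and -0.06. There replicate 1 of MO1 was the highest array, and an array again lay below a level of 4.

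The mitochondrial thioredoxin txn2.L read 0.18 and -4.99 in CoMO, -0.20 and -0.18 in MO1 and 0.58 and 0.32 in MO2+MO3, so that CoMO replicate 2 alone was low. At stage 10.5 its CoMO arrays stood at -2.29 and 2.39, MO1 arrays at -2.32 and 2.27 and MO2+MO3 arrays at -2.27 and 2.72. Each group there split by replicate number, and MO1 differed from CoMO by -0.03 and -0.12 within the numbers. The deformylase pdf.S also spread by number at stage 10.5, with CoMO arrays at -1.31 and 1.99 and MO1 arrays at -1.77 and 1.31.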
